A study of Mus musculus with 8 samples.

Results

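The messenger RNAs of 5 genes that put the small protein ISG15 onto other proteins or take it off again, Isg15, Uba7, Ube2l6, Herc6 and Usp18, were examined in primary mouse cortical astrocytes with reduced GSTM1, a glutathione S-transferase. The 5 genes were chosen by symbol, as known parts of this pathway and with earlier results of these data known, and each matched 1 of the 54146 genes in all 8 libraries. All cells were glia from the cortices of neonatal C57BL/6 mice, infected with lentivirus carrying a short hairpin RNA (shRNA) and selected with puromycin. The shRNA was directed against Gstm1 (GSTM1 KD) or was a non-silencing one (control KD). Each was sequenced unstimulated (basal level) and after 6 h with 50 ng/ml of the inflammatory cytokine TNF-α, which made 4 groups of 2 biological replicates. The labels give 1 shRNA name for the knockdown, shGstm1, and name no second one. Because infection took place in mixed glia, every glial cell type could carry the shRNA, and the astrocytes were enriched only afterwards, by shaking off loosely attached cells (oligodendrocyte lineage and microglia) and removing CD11b+ cells.

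ISG15 is a ubiquitin-like protein induced by interferon and joined to lysines of target proteins in a chain of steps (ISGylation). UBA7 activates it, UBE2L6 carries it, and in mice HERC6 is the main ligase that attaches it, while USP18 removes it. USP18 also binds the type I interferon receptor subunit IFNAR2 and dampens its signalling, and free ISG15 acts as a secreted, cytokine-like protein.

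Depth and identity of the libraries were checked first. The estimated fragment counts summed to between 17349676 and 34434633 per library, so that 3 counts, taken as the floor, stood at 0.0871 to 0.173 CPM (counts scaled to a common library size, with edgeR's TMM factors). This floor covers counting error only. Gstm1 stood at 209 to 391 CPM in the control KD libraries and at 23.3 to 31.4 CPM in those labelled GSTM1 KD. All 10 astrocyte markers examined had a count in every library, with a summed level of 3231 to 7340 CPM over the control KD libraries and 6571 to 9607 CPM over the GSTM1 KD libraries. Gfap alone was at 921 to 3080 CPM in control KD and 2985 to 5631 CPM in GSTM1 KD. The 10 markers did not move as one, since S100b, at 5.82 to 10.1 CPM in control KD and 1.95 to 3.16 CPM in GSTM1 KD, and Sox9 were lower in both GSTM1 KD libraries in each state. The 8 markers of the oligodendrocyte lineage summed to 577 to 742 CPM in control KD and 467 to 535 CPM in GSTM1 KD. The 6 neuronal markers summed to 291 to 329 and 334 to 373 CPM. The 10 microglial markers had a median level of 0.150 to 1.08 CPM per library and summed to between 45.5 and 54.4 CPM, and P2ry12 was at most 0.100 CPM. The 6 endothelial markers summed to 17.5 to 25.5 CPM in control KD and 9.14 to 17.6 CPM in GSTM1 KD, with Cldn5 at 0 in all 8 libraries. Flt1, the highest of them, was at 11.54 to 21.24 CPM in control KD and 4.808 to 13.05 CPM in GSTM1 KD. Kdr went the other way, at 0.5939 to 1.264 CPM in control KD and 1.717 to 2.956 CPM in GSTM1 KD. The 7 fibroblast and mural markers summed to 138 to 350.1 and 132 to 273 CPM, and the 6 ependymal and choroid plexus markers to 91.7 to 164 and 121 to 147 CPM. The part of any of these marker differences between the knockdowns in the results was not tested. In RNA from whole cultures, fewer cells of a type and less RNA per cell cannot be told apart.

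Promoter sequences are given first, because interferon-induced genes are bound by the factor ISGF3 at interferon-stimulated response elements (ISRE) and TNF-α acts largely through NF-κB, which binds κB sites. RefSeq promoters of build GRCm38.p6, from 250 bases before to 50 bases after the start site, were found for 4 of the 5 genes, all but Usp18. The letters searched on both strands were TTTCNNTTTC (full ISRE), its shorter form TTTCNNTTT, GGGANNTTCC (κB) and TTCNNNGAA (GAS), and a full ISRE match also holds the shorter form. These letters were chosen after the sequences had been seen. The Isg15 promoter, on the minus strand at chr4:156200769-156201068, held 3 overlapping full ISRE matches on the strand opposite to the gene, from 78 to 57 bases before the start site. The Uba7 promoter, on the plus strand at chr9:107975317-107975616, held 1 match to the shorter form, from 27 to 19 bases before the RefSeq start site. The GENCODE M21 annotation places the start of Uba7 upstream of this match, at 107975505. Both are shown 5′ to 3′ along the gene, with the matches in capitals, because these 2 promoters differ in how much of the element they hold.
Isg15: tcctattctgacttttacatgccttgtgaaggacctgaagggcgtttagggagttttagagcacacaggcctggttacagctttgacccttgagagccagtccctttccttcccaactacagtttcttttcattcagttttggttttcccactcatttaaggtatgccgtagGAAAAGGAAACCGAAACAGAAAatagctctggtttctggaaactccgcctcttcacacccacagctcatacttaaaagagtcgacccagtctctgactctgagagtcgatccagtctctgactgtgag
Uba7: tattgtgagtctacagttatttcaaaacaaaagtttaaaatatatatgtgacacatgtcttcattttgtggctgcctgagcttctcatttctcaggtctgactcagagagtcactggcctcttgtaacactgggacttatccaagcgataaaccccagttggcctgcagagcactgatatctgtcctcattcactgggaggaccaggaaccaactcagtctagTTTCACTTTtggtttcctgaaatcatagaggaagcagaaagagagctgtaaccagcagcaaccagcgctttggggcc
The Ube2l6 promoter (chr2:84798578-84798877, plus strand) and the Herc6 promoter (chr6:57580742-57581041, plus strand) held none of the 4 sets of letters in these windows. Of 32851 promoters of 300 bases, 3.44% held the full ISRE, 10.6% the shorter form, 1.47% the κB letters and 8.3% the GAS letters. Of 28 other interferon-stimulated genes listed here, 21 had such a promoter, and 10 of them held the full and 15 the shorter form. A match of letters is a description and not evidence of binding.

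The 5 genes differed widely in abundance. Per length, on the scale of the deposited TPM (the length-scaled share of all transcripts), Isg15 was the most and Uba7 the least abundant in each of the 8 libraries. At the basal level Isg15 stood at 51.5 to 61.9 TPM and Uba7 at 1.08 to 2.32 TPM. Ube2l6 came second there with 21.0 to 26.9 TPM. Usp18 (9.50 to 21.8 TPM) and Herc6 (9.79 to 14.6 TPM) followed, and their order was not the same in the 2 GSTM1 KD libraries. After TNF-α stimulation Usp18 took second place in all 4 libraries, with 46.2 to 51.9 TPM in control KD and 101 to 207 TPM in GSTM1 KD. Isg15 then reached 167 to 221 TPM in control KD and 350.5 to 652 TPM in GSTM1 KD. Without stimulation, the ratio of Usp18 to Isg15 by TPM was 0.302 and 0.392 in control KD, against 0.245 and 0.184 in GSTM1 KD. With stimulation it was 0.235 and 0.277 in control KD, against 0.317 and 0.287 in GSTM1 KD. The ratio of the deconjugating enzyme to the modifier was therefore lower in both unstimulated GSTM1 KD libraries than in either control KD library, and higher in both stimulated ones. This ratio was not tested.

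**Figure D1:**
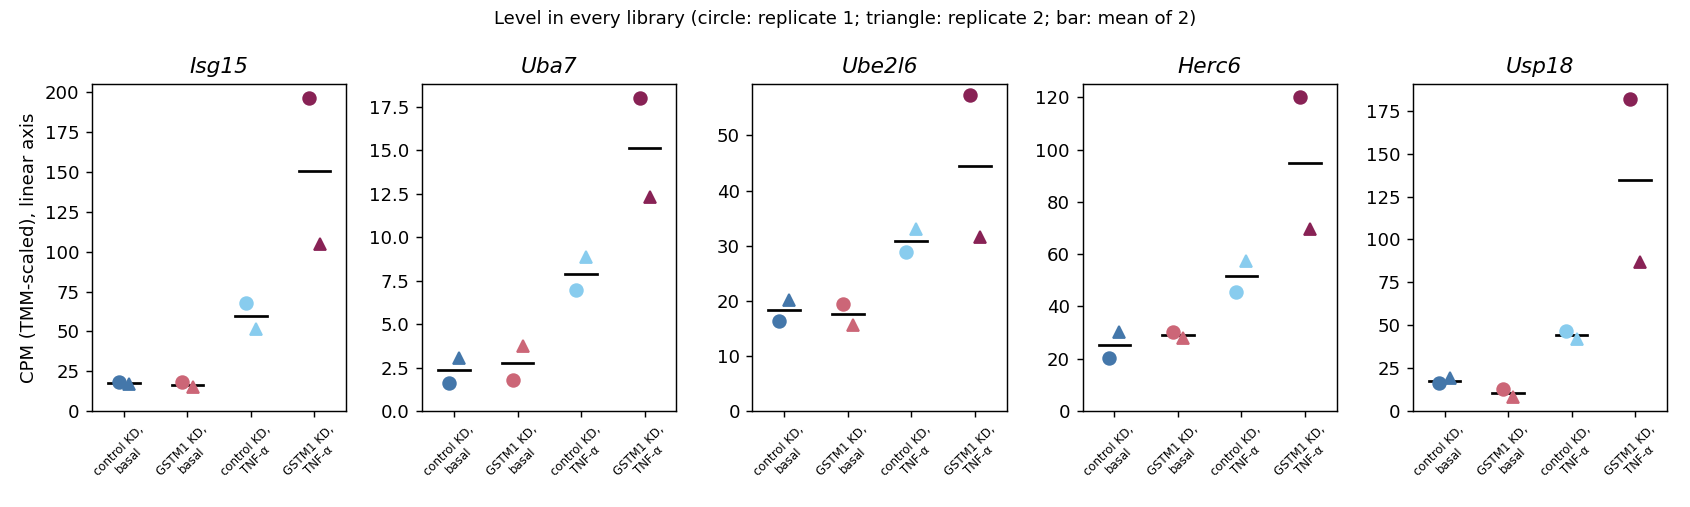
Level of each gene in every library, in TMM-scaled CPM on linear axes that start at 0 and differ between panels. Circles are replicate 1, triangles replicate 2 and bars the mean of 2. In all 5 panels the highest point is GSTM1 KD replicate 1 after TNF-α stimulation, from 18.0 CPM for Uba7 to 196 CPM for Isg15.

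Whether loss of GSTM1 altered these genes without stimulation was asked first. At the basal level the control KD and GSTM1 KD libraries overlapped for 4 of the 5 genes, all but Usp18. Over 15332 genes, 32.0% were higher and 31.0% lower in GSTM1 KD with no overlap. None of the 5 passed an adjusted p of 0.05 in edgeR's quasi-likelihood test on the 4 unstimulated libraries, which called 10.2% of the 14899 genes tested. One member, Usp18, had an unadjusted p under 0.05, beside 4712 of the 14899 genes. DESeq2 called none of the 5 and 18.5% of the genes it tested.

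Isg15, the modifier (ENSMUSG00000035692.6, chromosome 4 from 156199424 to 156200818, minus strand, 1 transcript), was at 18.4 and 16.8 CPM in control KD, against 18.2 and 14.9 CPM in GSTM1 KD. The groups overlapped, and the log2 fold change was -0.09 (SE 0.167, 95% interval -0.50 to 0.33). Uba7, the activating E1 enzyme (ENSMUSG00000032596.14, chromosome 9 from 107975505 to 107984060, plus strand), was at 1.64 and 3.05 CPM in control KD, against 1.80 and 3.76 CPM in GSTM1 KD. It had 42 to 78 counts per basal library, the fewest of the 5, and its interval was the widest, -0.96 to 1.46 around a log2 fold change of 0.25. Ube2l6, the E2 carrier (ENSMUSG00000027078.14, chromosome 2 from 84798828 to 84810335, plus strand), was at 16.4 and 20.2 CPM against 19.4 and 15.6 CPM in GSTM1 KD, and the groups again overlapped (log2 fold change -0.06, 95% interval -0.52 to 0.40). Herc6, the ligase (ENSMUSG00000029798.11, chromosome 6 from 57581000 to 57664632, plus strand), was at 20.5 and 30.2 CPM against 30.3 and 28.0 CPM in GSTM1 KD. One GSTM1 KD library lay between the control KD libraries (log2 fold change 0.20, 95% interval -0.31 to 0.71). Without control KD replicate 2, Herc6 passed the threshold as higher in GSTM1 KD, at a log2 fold change of 0.50 (adjusted p = 0.0302 by edgeR), in a fit that called 5256 of 15352 genes, and over the 4 fits without 1 library its adjusted p ran up to 0.829.

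Usp18, the deconjugating protease (ENSMUSG00000030107.10, chromosome 6 from 121245906 to 121270917, plus strand), was at 16.1 and 19.3 CPM in control KD, against 12.9 and 8.17 CPM in GSTM1 KD. Both GSTM1 KD libraries were below both control KD libraries, an order that 31.0% of 15332 genes showed in this comparison. The ratio of the means was 0.595, and the log2 fold change was -0.75 (SE 0.255, 95% interval -1.38 to -0.11, adjusted p = 0.116 by edgeR's quasi-likelihood test). The adjusted p of Usp18 ran from 0.00335 to 0.196 over the alternatives that kept all libraries, so the call depended on the setting. Usp18 passed by edgeR without the filter on low counts (adjusted p = 0.00335), beside 3957 genes. It also passed with the replicate number as a block (adjusted p = 0.0141), beside 4712 genes. Over the fits without 1 library the log2 fold change ran from -1.12 to -0.46, and none passed.

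After TNF-α stimulation all 5 genes had a higher mean level in GSTM1 KD than in control KD astrocytes, with log2 fold changes of 0.51 to 1.57. Isg15 and Usp18 passed the threshold in edgeR on the 4 stimulated libraries, 2 of 5 beside 16.2% of the 14593 genes tested, of which 7.26% passed as higher. DESeq2 called 4 of the 5, all but Ube2l6, beside 20.8% of the genes it tested. In 4 of the 5, both GSTM1 KD libraries lay above both control KD libraries, an order shown by 34.5% of 15332 genes.

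Stimulated, Isg15 was at 68.0 and 51.3 CPM in control KD, against 196 and 105 CPM in GSTM1 KD. The lower GSTM1 KD library was 1.54 times the higher control KD library, and the means, 59.6 ± 11.9 and 151 ± 64.6 CPM (SD, n = 2), differed 2.53-fold. The log2 fold change was 1.31 (SE 0.316, adjusted p = 0.0464 by edgeR). Usp18 was at 46.7 and 42.1 CPM in control KD, against 182 and 86.8 CPM in GSTM1 KD. Its lower GSTM1 KD library was 1.86 times the higher control KD library, and its means, 44.4 ± 3.24 and 134 ± 67.4 CPM (SD, n = 2), differed 3.03-fold. The log2 fold change of Usp18, 1.57 (SE 0.344, adjusted p = 0.0387 by edgeR), was the largest of the 5, while without stimulation it was the one gene with an interval wholly below 0.

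Of the enzymes of the conjugation chain, Uba7 was at 6.98 and 8.85 CPM in control KD, against 18.0 and 12.3 CPM in GSTM1 KD, with no overlap (log2 fold change 0.92, SE 0.253, adjusted p = 0.062 by edgeR). Herc6 was at 45.7 and 57.4 CPM in control KD, against 120 and 69.5 CPM in GSTM1 KD. Its lower GSTM1 KD library was 1.21 times the higher control KD library (log2 fold change 0.86, SE 0.272, adjusted p = 0.0847 by edgeR). Whether Uba7 and Herc6 passed depended on the setting, with adjusted p-values of 0.000392 to 0.131 and 1.74e-08 to 0.103 over the alternatives that kept all libraries. With the replicate number as a block both passed (adjusted p = 0.0289 and 0.0321 by edgeR), beside 4302 genes. Ube2l6 was at 28.8 and 33.0 CPM in control KD, against 57.3 and 31.7 CPM in GSTM1 KD. It was the one gene whose groups overlapped after stimulation, since GSTM1 KD replicate 2 lay between the control KD libraries (log2 fold change 0.51, SE 0.282, 95% interval -0.20 to 1.21, adjusted p = 0.253).

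The 2 stimulated GSTM1 KD libraries differed from each other in all 5 genes. Replicate 1 was above replicate 2 by 1.47- to 2.10-fold, with a median of 1.81, while the median ratio over 15257 genes was 0.997. In control KD after stimulation the median ratio of replicate 1 to replicate 2 over the 5 genes was 0.872. The 28 other interferon-stimulated genes gave 1.77 in stimulated GSTM1 KD, with all 28 above 1, and 0.985 in stimulated control KD. The 9 other E1 enzymes gave 1.01 in stimulated GSTM1 KD. Without GSTM1 KD replicate 1, none of the 5 genes and 0 of 14822 genes tested passed by edgeR. At an unadjusted p under 0.05 there were 3273 genes. Isg15 was then at a log2 fold change of 0.80 (adjusted p = 0.13), Usp18 at 0.95 (adjusted p = 0.0747) and Ube2l6 at 0.02. Without 1 of the other 3 libraries the adjusted p by edgeR was 0.0225 to 0.0472 for Isg15 and 0.0187 to 0.0415 for Usp18. Without control KD replicate 2, 4 of the 5 passed, all but Ube2l6, beside 5028 genes, and without GSTM1 KD replicate 2 there were 94 genes past the threshold, Isg15 and Usp18 among them. The 10 astrocyte markers summed to 6725 CPM in stimulated GSTM1 KD replicate 1 and 9519 CPM in replicate 2, of which Gfap made up 2985 and 5213 CPM, and all of them but S100b were lower in replicate 1. In stimulated control KD they summed to 3317 CPM in replicate 1 and 7340 CPM in replicate 2. The microglial markers had a median of 0.393 CPM in replicate 1 and 0.230 CPM in replicate 2, and in stimulated control KD 1.08 and 0.331 CPM. The part of such a difference between cultures in these results was not tested.

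**Figure D2:**
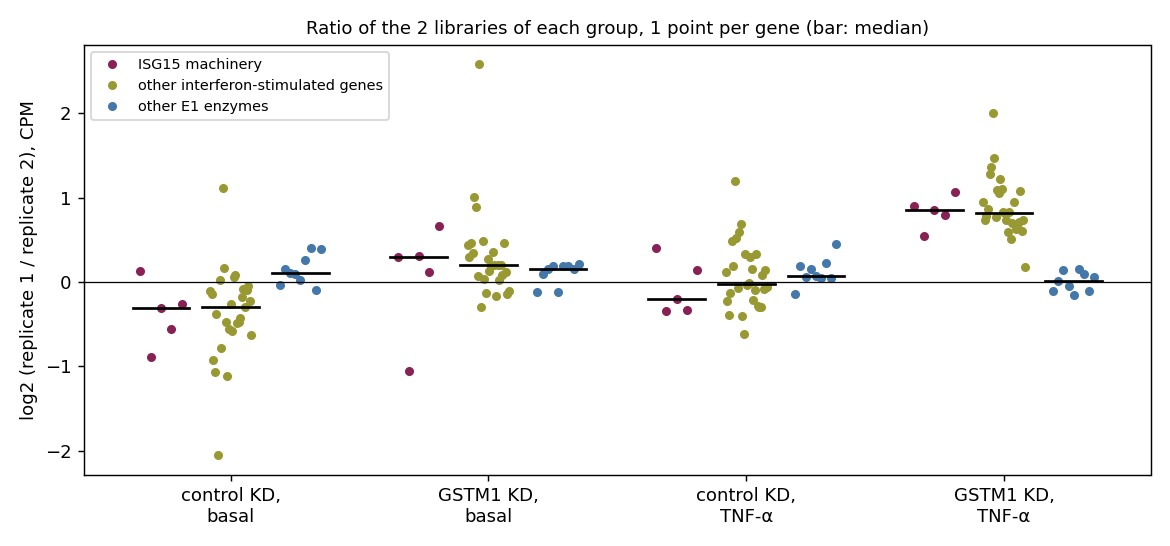
Log2 ratio of replicate 1 to replicate 2 (CPM) in each group, 1 point per gene, for the 5 ISG15 genes, the other interferon-stimulated genes and 9 other E1 enzymes, with the median as a bar. In stimulated GSTM1 KD the first 2 sets lie above 0, with median ratios of 1.81 and 1.77, and the E1 enzymes lie around 0.

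The response to TNF-α itself was measured in each knockdown, by edgeR on all 8 libraries with 1 coefficient per group. In control KD astrocytes all 5 genes were higher in both stimulated than in both basal libraries, an order shown by 16.2% of all genes. The means rose 1.69-fold for Ube2l6, 2.03-fold for Herc6, 2.51-fold for Usp18, 3.37-fold for Uba7 and 3.39-fold for Isg15. Of these, Isg15 passed the threshold (log2 fold change 1.76, SE 0.295, adjusted p = 0.0268), 1 of 5 beside 2.63% of 15332 genes. The others were at adjusted p = 0.0931 for Uba7, 0.129 for Usp18, 0.149 for Herc6 and 0.291 for Ube2l6. Whether these 4 passed depended on the setting. Over the alternatives other than leaving out 1 library, the highest adjusted p-values were 0.212, 0.128, 0.25 and 0.298, and the lowest were under 0.05. These alternatives included the fit on the 4 control KD libraries alone. With the replicate number as a block, Uba7 (adjusted p = 0.0391 by edgeR) and Usp18 (0.0422) passed beside Isg15, among 988 genes. DESeq2 called 4 of the 5, all but Ube2l6, beside 4.28% of the genes it tested. The edgeR call of Isg15 was lost when any 1 control KD library or any 1 basal GSTM1 KD library was left out, at adjusted p-values of 0.0577 to 0.129, and with the 4 control KD libraries alone (0.0531). Its log2 fold change stayed between 1.54 and 1.97 in the fits without 1 library.

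In GSTM1 KD astrocytes the 5 genes again were higher in both stimulated than in both basal libraries, as were 22.4% of all genes. The means differed 2.54-fold for Ube2l6, 3.26-fold for Herc6, 5.45-fold for Uba7, 9.10-fold for Isg15 and 12.8-fold for Usp18. Isg15 (log2 fold change 3.19, SE 0.31, adjusted p = 0.00294), Usp18 (3.67, SE 0.383, adjusted p = 0.00389), Herc6 (1.71, SE 0.288, adjusted p = 0.0276) and Uba7 (2.46, SE 0.428, adjusted p = 0.031) passed by edgeR, 4 of 5 beside 2.65% of 15332 genes. Ube2l6 missed the threshold (1.34, SE 0.278, adjusted p = 0.0593 by edgeR). Over the alternatives other than leaving out 1 library, among them the 4 GSTM1 KD libraries alone, its adjusted p ran from 1.15e-13 to 0.0773. DESeq2 called all 5, beside 3.75% of the genes it tested. The fits without 1 GSTM1 KD library called fewer genes in all, 74 to 255 against 406. Without basal GSTM1 KD replicate 2, none of the 5 passed, beside 74 of 15827 genes, with adjusted p-values of 0.0605 for Isg15 and 0.0617 for Usp18. Without basal GSTM1 KD replicate 1 (83 genes called), or without stimulated GSTM1 KD replicate 1 (167 genes called), Isg15 and Usp18 alone among the 5 passed. Without stimulated GSTM1 KD replicate 2 (255 genes called), Uba7 lost its call (adjusted p = 0.073) and Ube2l6 gained one (adjusted p = 0.0117). In each of these fits the 5 log2 fold changes stayed positive. They ran from 3.03 to 4.11 for Usp18, 2.66 to 3.57 for Isg15 and 2.02 to 3.07 for Uba7. For Herc6 they ran from 1.25 to 2.05 and for Ube2l6 from 0.85 to 1.71.

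The effective length of Uba7, which RSEM derives from the lengths of its transcripts, their estimated shares and the fragment size, also differed between states. Without stimulation it was 2241 and 2836 bases in control KD, against 2992 and 2876 bases in GSTM1 KD. With stimulation it was 2054 and 1800 bases in control KD, against 2146 and 1882 bases in GSTM1 KD. All 4 stimulated libraries lay below all 4 basal ones, the nearest at 2146 and 2241 bases. How many other genes showed this order was not counted, so it is not read as particular to Uba7. The files list 15 transcripts of Uba7, among which its 42 to 390 counts per library were divided. With effective lengths as offsets, the log2 fold change of Uba7 on TNF-α stimulation in control KD was 2.19 and passed the threshold (adjusted p = 0.0343 by edgeR, in a range of 2.97e-09 to 0.212 over the alternatives).

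The difference between the 2 responses, which is the test of whether TNF-α acted differently in GSTM1 KD, was positive for all 5 genes. For Usp18 it was 2.34 on the log2 scale (SE 0.502, 95% interval 1.16 to 3.52, unadjusted p = 0.00214), and for Isg15 it was 1.42 (SE 0.411, 95% interval 0.46 to 2.39, unadjusted p = 0.0101). The values for Uba7 (0.69), Herc6 (0.68) and Ube2l6 (0.59) had intervals that included 0. In the main edgeR fit, with the filter on low counts and no replicate block, no member had an adjusted p under 1. In that fit 2 members had an unadjusted p under 0.05, and 0.0% of 15332 genes passed, with 295 at an unadjusted p under 0.05. DESeq2 called 27 genes, 0.156% of those tested, and Usp18 was the 1 member among them (2.33, SE 0.469, adjusted p = 0.00129 by DESeq2, in a range of 1.57e-26 to 1 over the alternatives). The DESeq2 adjusted p of Isg15 was 0.209. Without the filter, edgeR called Isg15 (adjusted p = 2.31e-10) and Usp18, beside 134 of 26474 genes. With the replicate number as a block both were at an adjusted p of 0.65 by edgeR. Over the fits without 1 library the difference stayed between 1.70 and 2.77 for Usp18 and between 0.90 and 1.80 for Isg15, and none of the 5 passed in any of them. The comparisons above share libraries, so their values are given side by side and are not independent of each other.

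**Figure D3:**
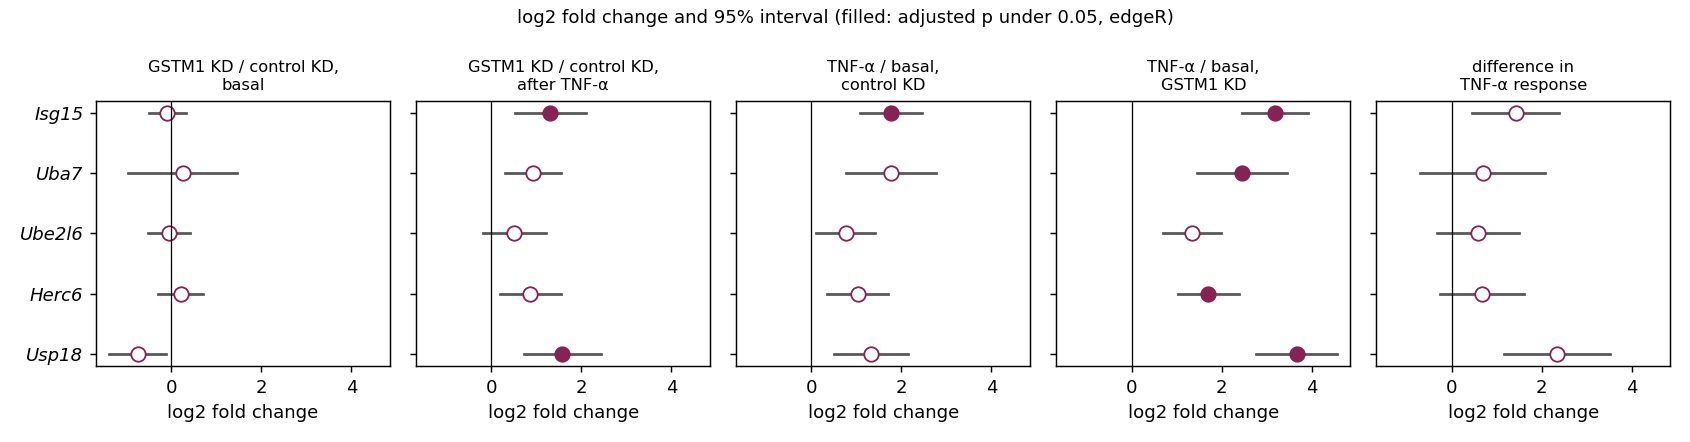
Log2 fold change and 95% interval of each gene in the 5 comparisons, from edgeR, with filled points for an adjusted p under 0.05. Usp18 lies at -0.75 in the basal panel and at 1.57 in the stimulated panel, and its difference in response is 2.34.

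The genes around this pathway were counted next, from lists of related enzymes and signalling genes. Among 8 other enzymes linked to ISG15 (Trim25, Arih1, Usp2, Usp5, Usp13, Usp14, Usp16 and Usp21), none differed between GSTM1 KD and control KD in either state by edgeR, with a median log2 fold change of -0.03 after stimulation, beside -0.01 over all genes tested. At an unadjusted p under 0.05 there were 2 of the 8 at the basal level, beside 4712 of 14899 genes, and 3 after stimulation, beside 5286 of 14593 genes, and DESeq2 called Trim25 in each state. The exception in the response to TNF-α was Trim25, an ISG15- and ubiquitin-ligase that activates the RNA sensor RIG-I. Unstimulated, it was at 19.6 and 25.7 CPM in control KD, against 14.9 and 13.9 CPM in GSTM1 KD. Stimulated, it was at 44.8 and 49.1 CPM in control KD, against 109 and 56.6 CPM in GSTM1 KD. Trim25 thus showed the order of libraries seen for Usp18, lower in both GSTM1 KD libraries at the basal level and higher in both after TNF-α stimulation. That order was shown by 0.783% of 15332 genes, and on the lists examined also by Stat2, Dhx58, Ifit1, Ifit2, Ifit3, Oasl1 and Parp14. The response of Trim25 passed the threshold in GSTM1 KD (log2 fold change 2.52, adjusted p = 0.00636 by edgeR) and not in control KD (1.05, adjusted p = 0.145), and the difference had an adjusted p of 1. DESeq2 called Trim25 for both responses and not for their difference. Of the LFA-1 receptor of free ISG15, Itgal had at most 8 counts in any library and was not tested, and Itgb2, at 0.301 to 1.55 CPM, did not pass in any of the 5 comparisons.

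The close relatives of the conjugating enzymes were counted in the responses to TNF-α, for which 2.63% and 2.65% of all genes passed in control KD and GSTM1 KD by edgeR (a count of 0 in lists this short is near that share). None of 9 E1 enzyme genes of ubiquitin and other ubiquitin-like proteins responded to TNF-α in either knockdown by edgeR, with log2 fold changes of -0.09 to 0.19 in control KD and 0.01 to 0.22 in GSTM1 KD. At an unadjusted p under 0.05 by edgeR there were 1920 of 15332 genes in control KD and 1670 in GSTM1 KD. None of the 9 was among them. DESeq2 called 0 of the 9, beside 4.28% and 3.75% of the genes it tested. Counts this low in lists this short are near these shares. Among 10 Ube2 and Herc genes, including Ube2l3, the E2 enzyme most like Ube2l6, none responded to TNF-α in either knockdown by edgeR or DESeq2, with 1 in each at an unadjusted p under 0.05. Herc1 (log2 fold change 0.39, adjusted p = 0.0458) and Herc3 (0.49, adjusted p = 0.0275) were higher in stimulated GSTM1 KD than in stimulated control KD by edgeR. They were 2 of the 10, beside 7.26% of the 14593 genes tested that passed as higher. DESeq2 called Herc3 alone of the 10 in this comparison, beside 20.8% of the genes it tested.

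Of the 11 genes of type I interferon signalling, 4 were higher, Stat2, Irf9 and Irf7 among them, and the receptor gene Ifnar1 was lower in stimulated GSTM1 KD than in stimulated control KD by edgeR, beside 7.26% of all genes tested that passed as higher and 8.92% as lower. The median log2 fold change over the 11 was 0.13. STAT2 and IRF9 are parts of ISGF3. Stat2 was at 56.8 and 66.9 CPM in stimulated control KD, against 187 and 105 CPM in stimulated GSTM1 KD (log2 fold change 1.22, adjusted p = 0.0413 by edgeR). At the basal level none of the 10 genes tested passed by edgeR or DESeq2, beside 10.2% and 18.5% of all genes they tested. Of the 10, 2 had an unadjusted p under 0.05 by edgeR, beside 4712 of 14899 genes. Ifnb1, which encodes interferon-β, had 0 counts in all 4 basal libraries. After stimulation its counts were 7 and 1 in control KD, against 25 and 9 in GSTM1 KD, a difference that missed the threshold (adjusted p = 0.115 by edgeR). Irf1, an early TNF-α target, rose in both knockdowns on TNF-α stimulation, with log2 fold changes of 3.11 and 3.22 (adjusted p = 0.000239 and 0.000255 by edgeR) and a difference of 0.11 (SE 0.191).

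Among the 28 other interferon-stimulated genes, 17 were higher and none lower in stimulated GSTM1 KD than in stimulated control KD by edgeR. Beside them 7.26% of all genes tested passed as higher, and the median log2 fold change over the 28 was 1.35. DESeq2 called 24 of the 28, beside 20.8% of the genes it tested. At the basal level 2 of 25 tested, Ifit1 and Oasl1, were lower and none higher by edgeR, beside 5.62% of all genes tested that passed as lower, with a median of -0.08. DESeq2 called 4 there, Ifit1, Ifit3, Oasl1 and Lgals3bp, beside 18.5% of the genes it tested. Of these, Lgals3bp was higher in GSTM1 KD, at 89.5 and 96.7 CPM against 43.1 and 66.7 CPM in control KD. On TNF-α stimulation 14 of 28 rose in control KD (median log2 fold change 1.60) and 24 of 28 in GSTM1 KD (median 2.95) by edgeR, beside 2.1% and 2.35% of all genes. DESeq2 called 19 and 27 of the 28, beside 4.28% and 3.75% of the genes it tested. Oas2 and Oas3 were at or under the floor in all 4 basal libraries, and setting them at their bound left both medians at 1.60 and 2.95. No gene of this list passed for the difference in response by edgeR, with a median of 1.41, while 23 had an unadjusted p under 0.05 and DESeq2 called 8, beside 0.156% of the genes it tested. The medians of the 5 ISG15 genes were 0.92 between the knockdowns after stimulation, 1.33 and 2.46 for the responses in control KD and GSTM1 KD, and 0.69 for the difference. Over all genes tested the medians lay between -0.02 and 0.02. The study had picked some interferon-response genes on these libraries, so the direction of these lists is not independent of that choice.

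**Figure D4:**
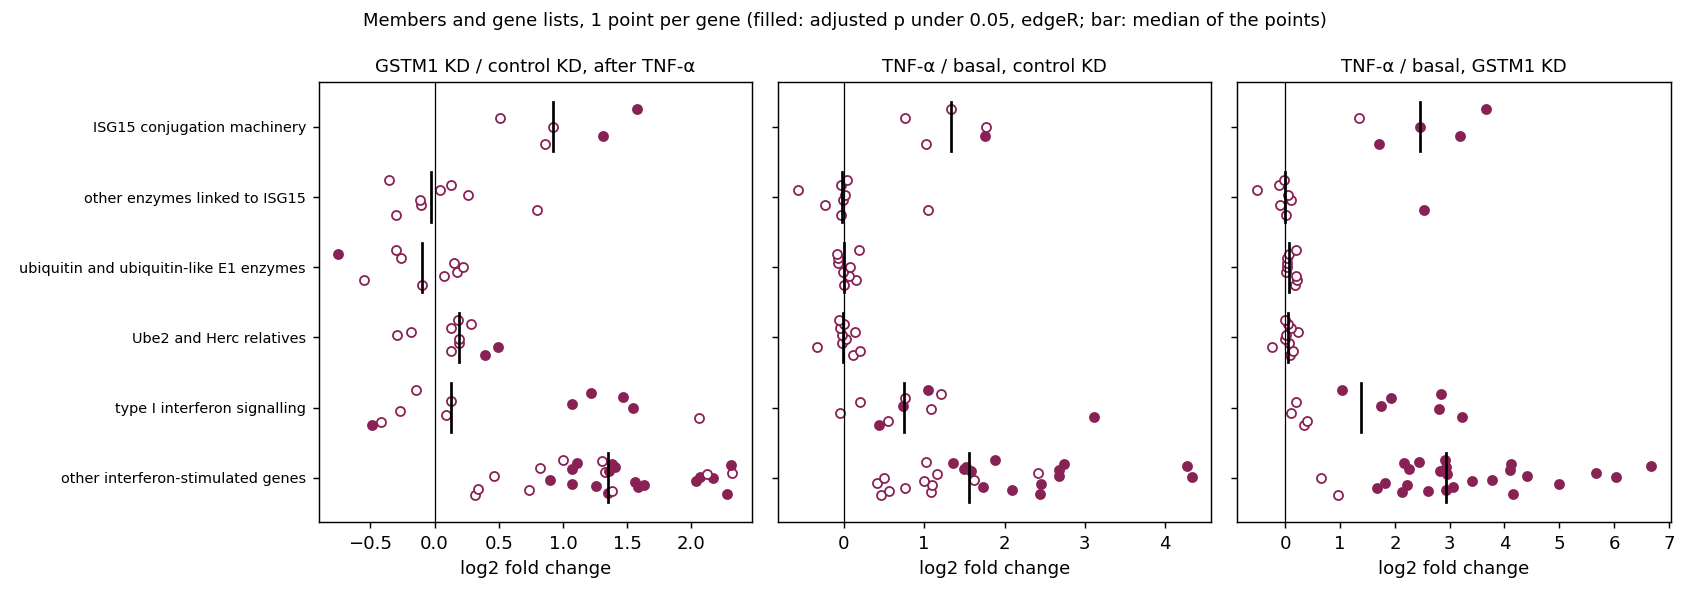
Log2 fold change of each gene, by list, between the knockdowns after TNF-α stimulation and on TNF-α stimulation in control KD and GSTM1 KD, with filled points for an adjusted p under 0.05 in edgeR and bars for the median of the points drawn. Genes at or under the floor in a group are left out. The E1 enzymes and the Ube2 and Herc relatives lie near 0 in both responses, and the 5 ISG15 genes lie above 0 in all 3 panels.

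Across the 8 libraries, the genes whose profile was most like that of Isg15 were Mx1, Xaf1, Slfn5, Helz2 and Trim21, with Pearson r of 0.998 to 0.994 on log2(CPM + 1) among 15331 genes ranked. Usp18 ranked 37 (r = 0.98), Ube2l6 111 (0.951), Herc6 112 (0.95) and Uba7 139 (0.936). Among the 5 genes themselves r ran from 0.906, for Uba7 and Usp18, to 0.98, for Isg15 and Usp18. Of the first 100 genes, 19 were among the 28 other interferon-stimulated genes. These values describe 8 libraries that fall into 2 states, so genes that responded to TNF-α resemble one another by that alone, and 218 genes exceeded an r of 0.9.

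Genes that overlap the 5 had few counts. In the GENCODE M21 annotation, exons of Uba7 overlap Gm20661 on the same strand, which had at most 4.11 counts in a library. Herc6 overlaps Gm45193 on the same strand, with at most 8.02 counts, and Usp18 overlaps the lincRNA Gm44148 on the opposite strand, with at most 9 counts. RSEM divides reads between such genes, and whether the strand was used is not stated in the sources used here. No gene overlaps Isg15 or Ube2l6. With 2 libraries per group no exact permutation test can reach 0.05. The p-values set each difference against the spread between libraries of a group, which the fits estimate partly from the other genes.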

How the data were processed

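RNA of 8 libraries was sequenced by the authors as 100-base read pairs from a directional kit, mapped to GRCm38 with STAR (version 2.5.4b) and quantified with RSEM (version 1.3.0). Expected counts, deposited without normalization, are estimates of fragments per gene. The deposited FPKM values, scaled by length and depth in the authors' RSEM run, were not used. The deposited TPM values are scaled per length by the authors' RSEM run, and the deposited effective lengths are in bases. TPM was used to order the genes, for ratios of Usp18 to Isg15 and as an alternative scale for levels, and in no test. The 2 replicates of each group were taken from the labels.

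Expected counts were rounded, filtered with filterByExpr, scaled by TMM and tested with edgeR (version 4.0.16, R version 4.3.3), with its quasi-likelihood F-test and Benjamini-Hochberg adjustment over all genes tested at 0.05. The knockdowns were compared on the 4 libraries of a state, and the TNF-α responses and their difference were fitted on all 8. DESeq2 (version 1.42.0), other scalings and filters, effective lengths as offsets, a replicate block, other sets of libraries and leaving out each library were alternatives. The fits were also run on simulated data, and no outcome of that is reported or used here. The members and gene lists were chosen with earlier results of these data known. Named genes are the 5 members, genes of the lists described and the 5 genes most like Isg15. The replicate numbers are not explained by the sources, so replicates are treated as separate cultures, and the main fits pair no basal library with a stimulated one. Some single genes of the lists are not reported here. Figures were drawn with matplotlib (version 3.10.9).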

Additional observations from a re-analysis of the deposited data

Results flagged for a closer look

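The difference between the knockdowns had opposite signs in the 2 states for Usp18. Usp18 was lower in both GSTM1 KD libraries at the basal level (log2 fold change -0.75) and higher in both after TNF-α stimulation (1.57). In the main edgeR fit the first of these did not pass the threshold (adjusted p = 0.116). Without the filter on low counts edgeR called it (adjusted p = 0.00335), as it did with the replicate number as a block (0.0141). The order of lower at the basal level and higher after stimulation was not particular to Usp18. It was shown by 120 of 15332 genes (0.783%), among them Trim25, Stat2 and 6 of the 28 other interferon-stimulated genes (Dhx58, Ifit1, Ifit2, Ifit3, Oasl1 and Parp14). The test of the difference between the responses passed in DESeq2 (log2 difference 2.33, adjusted p = 0.00129). It did not pass in edgeR with the filter on low counts (adjusted p = 1), nor with the replicate number as a block. EdgeR without the filter called it (adjusted p = 1.57e-26). Removing the filter also gave smaller SEs, for Usp18 between the stimulated knockdowns 0.14 in place of 0.344. Groups of 2 libraries are too small for a check of single outlying samples.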

How the results depend on the processing

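The direction of the 5 genes in the responses, in their difference and between the stimulated knockdowns was kept in every fit run. At the basal level the values of 4 genes changed sign as single libraries were left out, from -0.241 to 0.044 for Isg15, -0.378 to 0.741 for Uba7, -0.227 to 0.088 for Ube2l6 and -0.055 to 0.499 for Herc6 (the last of these called), and the ratio of the Ube2l6 means was -0.06 on the log2 scale in CPM and 0.022 in TPM. Calls were less stable than directions. With the filter removed, 1, 5, 5 and 2 of the 5 genes passed for the basal knockdowns, the stimulated knockdowns, the control KD response and the difference, beside 3957, 4540, 1255 and 134 genes, and 5 of 5 and 1050 genes for the GSTM1 KD response. DESeq2 gave 4 of 5 for the stimulated knockdowns, 4 for the control KD response and 1 for the difference, with 2494 genes at the basal level, 738 and 629 for the responses and 27 for the difference. With only the 4 libraries of a knockdown, 0 of 5 and 72 genes passed for the control KD response and 691 genes for the GSTM1 KD response. All 8 libraries in the basal fit gave 2762 genes, and effective lengths gave 2 of 5 for the control KD response. Leaving out 1 library moved the calls among the 5 from 0 to 1 (basal), 0 to 4 (stimulated), 0 to 2 (control KD response) and 0 to 4 (GSTM1 KD response), and left the difference at 0. The genes called ranged from 1 to 5256, 0 to 5028, 180 to 313, 74 to 444 and 0 to 2 in the same order. The causes were not tested.

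With the replicate number as a replicate block, 1 of 5 genes passed at the basal level (Usp18, adjusted p = 0.0141 by edgeR), 4 after stimulation (all but Ube2l6, with adjusted p = 0.0289 for Uba7 and 0.0321 for Herc6) and 3 for the control KD response (Isg15, Uba7 and Usp18), beside 4712, 4302 and 988 genes, with 5 of 5 and 808 genes for the GSTM1 KD response, where Ube2l6 gained a call (adjusted p = 0.0342 by edgeR). The deviations of same-numbered libraries from their group means correlated at 0.248 to 0.731 across 15332 genes between groups. With 2 pairs and no statement of what the number marks, this is a hint from the data and not a pairing by design. Where a left-out library leaves a group with 1 sample, that sample is assumed to vary like the others. Uba7 had the fewest counts of the 5, 42 to 390 per library.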
